A study of Mus musculus with 16 samples.

Results

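Axon guidance ligands and receptors were taken as the mouse genes whose symbols name a semaphorin of classes 3 to 7 (Sema), a plexin (Plxn), a neuropilin (Nrp), an ephrin (Efn), an Eph receptor (Eph), a Slit, a Robo, a netrin (Ntn), an Unc5 or Dcc. The rule used the symbol and no measured value. It found 68 genes of 47729 with values in the deposited data: 20 semaphorins, 9 plexins, 2 neuropilins, 8 ephrins, 14 Eph receptors, 3 Slits, 4 Robos, 3 netrins and 5 genes of the Unc5 and Dcc group. Of these, 65 reached at least 0.5 CPM (reads on the gene scaled to a library total of 1000000) in all 4 libraries of at least 1 group and were tested. Epha6, Ntn5 and Robo3 did not, and the highest count of any of them in a library was 23 reads, for Epha6 in a control input. The threshold was met in all 4 groups by 61 of the 65, whereas Dcc and Epha8 met it in 3 groups and Epha10 and Slit1 in 1.

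These genes encode cues that steer growing axons and also sort cells at tissue borders. Semaphorins signal through plexins, which secreted class 3 semaphorins mostly reach through neuropilins. Ephrin-A ligands are tethered to the membrane by a lipid anchor and bind mainly EphA receptors, ephrin-B ligands span the membrane and bind mainly EphB receptors, Slits bind Robos, and netrins bind DCC and UNC5 receptors. In the developing cochlea such cues guide the neurites of spiral ganglion neurons towards the hair cells.

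RNA was sequenced from the cochleae of mice at postnatal day (P) 4 in 16 libraries, with 4 replicates of input and of IP from control mice and the same number from DTR mice. All mice carried GLAST-CreERT/+ and Rpl22-HA/+ (RiboTag), so that after tamoxifen a tagged ribosomal protein was made in cells that express GLAST (Slc1a3), and the DTR mice also carried Lgr5-DTR/+, a diphtheria toxin receptor driven by Lgr5, by which the toxin kills Lgr5+ supporting cells. The input was 5% of each homogenate, the IP was the ribosome-bound RNA pulled down with an anti-HA antibody from the other 95%, and each replicate was a pool of cochleae from several mice freed of the lateral wall, Reissner's membrane and spiral ganglia. According to the study, mice of either genotype were given diphtheria toxin (DT) and tamoxifen at P1, whereas the sample labels give the DTR libraries as DTR treated and the control libraries as not treated. The fourth replicate of each group carries another number in the deposited columns than in its title, and is called replicate 4 here. Libraries held 28089836 to 41966310 reads on genes, and 3 reads in a library, the floor used here, came to 0.0715 to 0.107 CPM.

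Lgr5, the gene that drives the toxin receptor, averaged 63.3 ± 3.03 CPM (SD, n = 4, as for the group means below) in control input and 15.9 ± 3.69 in DTR input, and 36.6 ± 3.99 in control IP and 9.38 ± 1.40 in DTR IP. Slc1a3 was at 281 ± 14.3 CPM in control input and 236 ± 21.9 in control IP and was not higher in the IP. The 10 markers of supporting cells and the greater epithelial ridge (GER) summed to between 12738 and 13520 CPM in control IP and between 9228 and 13196 in control input. These markers did not move together. By the rule given below, 3 were called higher and 2 lower in control IP, with log2 fold changes from -1.38 to 3.49. The 9 hair cell markers summed to 181 to 265 CPM in control IP against 600 to 748 in control input, and the 8 endothelial markers to 103 to 132 against 311 to 372. No marker in the 10 lists examined was at or below the floor in all libraries. Summed neuron markers were 954 and 1031 CPM in replicates 1 and 2 of control input and 391 and 436 in replicates 3 and 4, and they were higher in replicates 1 and 2 than in replicates 3 and 4 in each of the other groups as well. In whole-tissue RNA, fewer cells of a type and less RNA per cell cannot be told apart.

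Levels were compared between genes as CPM per kb of merged exons, averaged over the 16 libraries. Efna1, a lipid-anchored ephrin that binds EphA receptors, was the most abundant member at 86.0 CPM per kb, and Epha7, an EphA receptor, followed at 40.7. The most abundant plexin was Plxnb2, a receptor for class 4 semaphorins, at 25.1 CPM per kb, and the most abundant semaphorin was Sema4c, a membrane-bound class 4 ligand, at 23.9. The other families were led by Ntn4, a laminin-related netrin, at 19.0, by the secreted ligand Slit3 at 9.60, by the co-receptor Nrp1 at 8.45, by the netrin receptor Unc5b at 5.85 and by the Slit receptor Robo2 at 5.00 CPM per kb. The order within some families differed between input and IP. In control input Ephb4 (34.6 CPM per kb) was above Epha7 (31.1), Sema3b (25.6) and Sema3f (24.9) above Sema4c (19.4), and Robo1 (6.32) above Robo2 (5.93). In control IP Plxnd1 (17.96) was above Plxnb2 (13.8), and Nrp2 was above Nrp1 in control input (9.97 and 7.73) and control IP (7.56 and 6.99). Over the 16 libraries the median of the tested genes was 5.15 CPM per kb, and 30 of the 68 members lay above it. At the low end, Slit1 was at 0.104 and Dcc, the classical netrin receptor, at 0.163 CPM per kb.

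**Figure D1:**
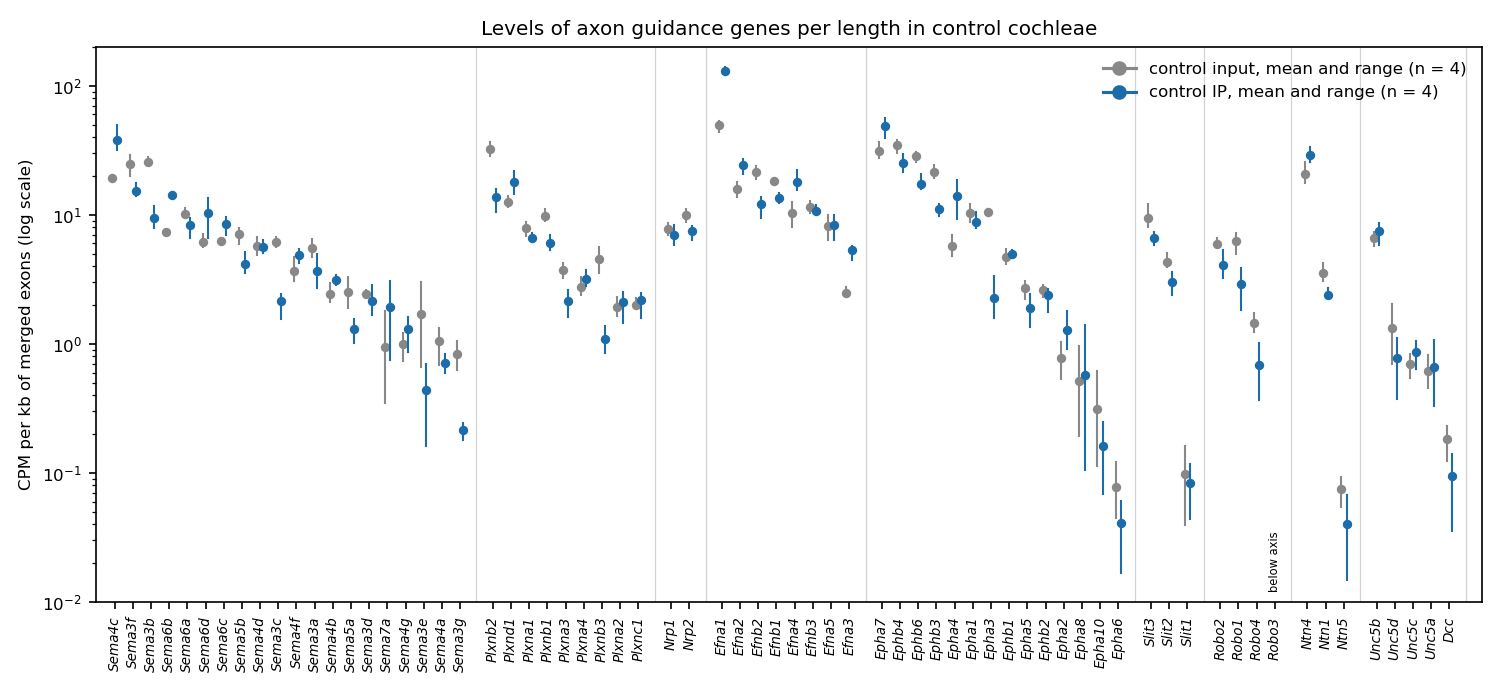
Level of each of the 68 members in control cochleae, in CPM per kb of merged exons on a log scale, with input in grey and IP in blue. Points are group means and lines span the lowest to the highest of 4 libraries. Genes are ordered in each family by their mean over all 16 libraries. Efna1, Slit3, Ntn4 and Unc5b were the highest of their families in input and IP alike, and Robo3 lay below the axis.

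Promoters are printed for reference. They are those of Ephb1, the member most reduced in DTR cochleae, and of Efna3, Ephb2 and Sema4c. Of the members called between control and DTR that had a promoter entry, only these 3 had a window with the EGR letters. In DTR input, Efna3 was called higher, and Ephb2 and Sema4c were called lower. Egr1, which encodes an immediate early EGR factor, averaged 55.4 ± 14.02 CPM in control input and 1700.0 ± 836 in DTR input, and Jun, which encodes a subunit of the AP-1 factor, 49.1 ± 8.87 and 339.8 ± 79.3. Any part of EGR or AP-1 factors in the levels of these members was not tested. Each sequence is the 250 bases before a start of the gene in RefSeq on GRCm38.p6, all on the minus strand, at chr9:102354694-102354943 for Ephb1, chr3:89322940-89323189 for Efna3, chr4:136836013-136836262 for Ephb2 and chr1:36558382-36558631 for Sema4c. Efna3 and Sema4c each had a further RefSeq window (chr3:89321769-89322018 and chr1:36557558-36557807) that held none of the letters searched and is not printed. Capitals mark EGR (GCGTGGG) or AP-1 (TGANTCA) letters on either strand.
Ephb1: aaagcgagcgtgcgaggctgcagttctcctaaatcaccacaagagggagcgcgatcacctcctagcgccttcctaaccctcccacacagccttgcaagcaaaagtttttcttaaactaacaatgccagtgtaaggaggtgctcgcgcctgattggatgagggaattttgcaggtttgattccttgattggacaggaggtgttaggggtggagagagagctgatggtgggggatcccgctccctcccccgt
Efna3: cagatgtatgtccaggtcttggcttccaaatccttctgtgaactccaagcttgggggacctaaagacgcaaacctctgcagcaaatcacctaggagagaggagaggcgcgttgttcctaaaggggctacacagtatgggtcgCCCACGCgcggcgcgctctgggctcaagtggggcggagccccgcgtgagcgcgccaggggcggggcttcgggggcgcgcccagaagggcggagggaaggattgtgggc
Ephb2: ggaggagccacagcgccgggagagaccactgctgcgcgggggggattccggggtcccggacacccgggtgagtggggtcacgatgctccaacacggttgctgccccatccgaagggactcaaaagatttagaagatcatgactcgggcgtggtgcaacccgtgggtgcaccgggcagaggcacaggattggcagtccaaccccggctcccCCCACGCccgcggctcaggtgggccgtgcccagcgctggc
Sema4c: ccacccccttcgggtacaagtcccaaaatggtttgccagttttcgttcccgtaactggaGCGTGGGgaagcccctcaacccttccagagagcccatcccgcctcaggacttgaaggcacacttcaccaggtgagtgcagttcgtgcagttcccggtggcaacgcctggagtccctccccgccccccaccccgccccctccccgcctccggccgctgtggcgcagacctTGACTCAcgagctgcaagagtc
The EGR letters began 108 bases before the start of Efna3, 40 before that of Ephb2 and 191 before that of Sema4c, and the AP-1 letters 22 before that of Sema4c. The EGR, AP-1 and TEAD (GGAATG) letters were searched on both strands in the 14 promoter entries found for 12 of the 13 members called between control and DTR. They were present in at least 1 entry of 3, 1 and 1 members, whereas 4.304%, 6.749% and 12.64% of 32851 RefSeq promoter windows of the same length held them. The former are counts of members and the latter shares of windows. The TEAD letters lay before Epha3. A match is a run of letters and was not tested as a binding site.

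The comparison of IP with input asks which members were carried by ribosomes of GLAST-Cre+ cells relative to the whole tissue. A member was called where the adjusted p of limma was under 0.05, the fold change was over 1.5 and the libraries of both groups did not overlap on the quantile-normalised scale. Efna1, Efna3, Efna4, Epha4, Epha7, Sema4c and Sema6b were higher in the IP in both treatments. Efnb2, Epha3, Ephb3, Plxnb2, Plxnb3, Robo1, Sema3b, Sema3c, Sema5a and Sema5b were lower in the IP in both. In control cochleae 26 of 65 members were called, 9 higher and 17 lower in the IP (40%), against 24.1% of the 16994 genes tested (11.8% higher, 12.3% lower). In DTR cochleae 23 were called, 12 higher and 11 lower (35.4%), against 21.8% of all genes (11.5% higher, 10.3% lower). The median log2 fold change (LFC) was -0.23 over the tested members and -0.0012 over all genes in control, and -0.12 and -0.027 in DTR. Of the members called, 17 were called in both treatments, 9 in control only by count and 6 in DTR only by count, and none of these differences between treatments passed a test of its own. The matching split over all genes is not given, so these counts show nothing particular to the members. By a stricter rule that also asked for an LFC of at least 1 and a 1.5-fold gap between the groups, 2 members were called higher and 6 lower in control (4.12% and 3.56% of all genes, 7.68% together) and 2 higher and 4 lower in DTR (3.67% and 2.11%, 5.77% together).

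**Figure D2:**
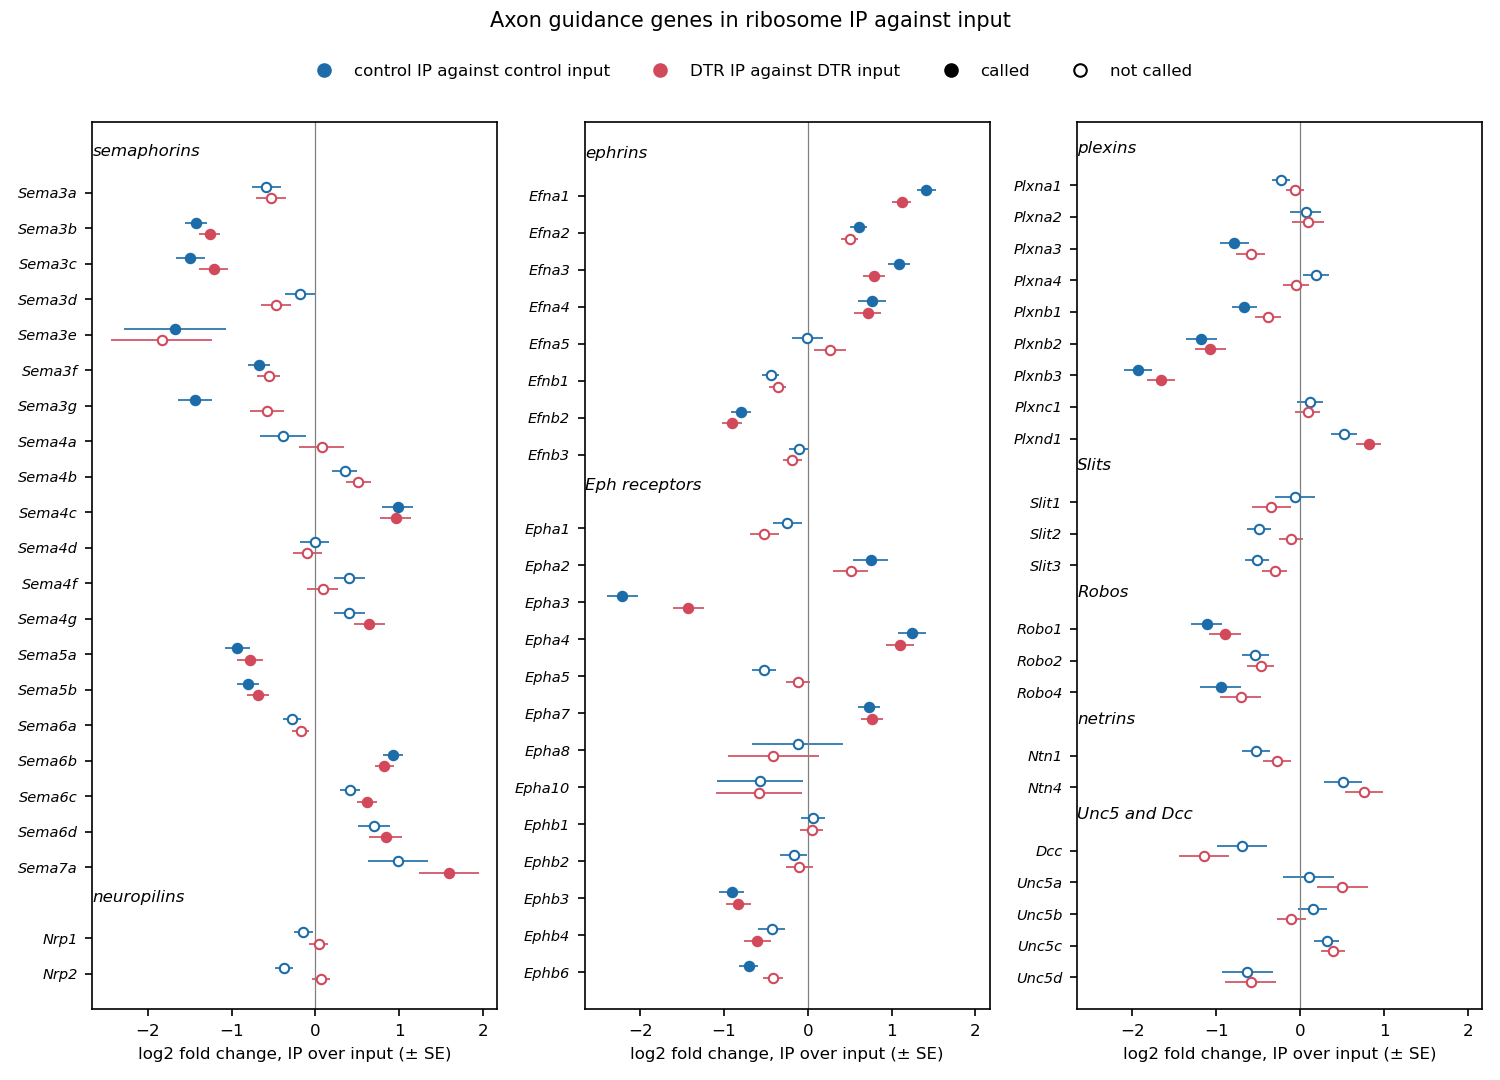
LFC of IP over input, with its SE from limma, for the 65 tested members by family, in control (blue) and DTR (red) cochleae. Filled points were called. The 4 ephrin-A genes Efna1 to Efna4 lie to the right of 0 and Efna5 lies near 0 in control, and all 7 class 3 semaphorins lie to the left in both treatments.

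Of the 5 ephrin-A genes, 4 were called higher in control IP (Efna1, Efna2, Efna3 and Efna4) and 3 in DTR IP (Efna1, Efna3 and Efna4). The study corrected for a gene length effect in its IP libraries before clustering, and the scaling used here did not. The merged exons were 1.83, 2.13, 2.43 and 1.60 kb long for Efna1 to Efna4 in order, and 4.03 kb for Efna5. The part of gene length in the LFCs of IP over input was not tested. Efna1 was at 79.9, 89.4, 95.2 and 97.9 CPM in control input (replicates 1 to 4, as in every list below) and at 223.9, 234.1, 254.4 and 238.7 in control IP. It was at 80.2, 97.4, 112.5 and 97.3 CPM in DTR input and at 177.7, 224.4, 222.4 and 191.6 in DTR IP. Every IP library lay above every input library, with ratios of the means of 2.63 in control and 2.11 in DTR. The LFC was 1.41 ± 0.11 (SE, adjusted p = 2.6e-08, limma) in control and 1.12 ± 0.11 (5.6e-07) in DTR.

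Efna3 was less abundant. It was at 5.79, 6.73, 5.59 and 5.85 CPM in control input and at 13.9, 13.0, 13.8 and 10.8 in control IP. In DTR cochleae it was at 12.2, 9.98, 8.61 and 11.6 CPM in input and at 21.02, 18.7, 18.7 and 16.1 in IP. The groups did not overlap in either treatment, with LFCs of 1.09 ± 0.13 (adjusted p = 3.2e-06, limma) and 0.79 ± 0.13 (0.00012). Efna4 had LFCs of 0.77 ± 0.16 and 0.71 ± 0.16 in control and DTR, and Efna2 of 0.61 ± 0.10 in control, where its call was lost without control input 4 (0.55) or control IP 1 (0.56). Efna5 had an LFC of -0.0031 ± 0.19 in control and was not called. The ephrin-B genes, whose products also signal backwards into the cell that carries them, all had negative LFCs, and Efnb2 was called lower in the IP in control (-0.79 ± 0.12) and DTR (-0.90 ± 0.12).

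Among the EphA receptors, Epha4, which binds ephrins of both classes, was higher in the IP. It was at 56.4, 38.6, 45.8 and 45.5 CPM in control input and at 151, 119, 108 and 74.3 in control IP. It was at 66.9, 54.3, 44.6 and 52.4 CPM in DTR input and at 144, 124, 112 and 90.03 in DTR IP. The IP libraries were above the input libraries in both treatments although replicate 4 was the lowest of each IP group, with LFCs of 1.24 ± 0.17 (adjusted p = 1.4e-05, limma) and 1.10 ± 0.17 (6.2e-05). Epha7 was called higher in both treatments (0.73 ± 0.13 and 0.77 ± 0.13) and Epha2 in control (0.75 ± 0.21, adjusted p = 0.0084). The deposited CPM of Epha2 overlapped (up to 4.86 in control input, down to 4.28 in control IP), and its call was lost without quantile normalisation (0.67) and with median centring (0.66).

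Epha3, an ephrin-A receptor like Epha4, went the other way. It was at 88.0, 94.4, 84.5 and 96.4 CPM in control input and at 17.7, 29.3, 17.8 and 13.7 in control IP. It was at 39.5, 56.4, 43.4 and 68.8 CPM in DTR input and at 20.2, 19.7, 14.5 and 23.1 in DTR IP. The control input libraries were all above 84 CPM and no IP library reached 30, so that the mean was 4.63-fold lower in control IP and 2.69-fold lower in DTR IP, with LFCs of -2.21 ± 0.18 (adjusted p = 3.6e-08, limma) and -1.43 ± 0.18 (8.2e-06). Among the EphB receptors, Ephb3 was called lower in the IP in control (-0.91 ± 0.15) and DTR (-0.83 ± 0.15), Ephb6, which lacks kinase activity, in control (-0.71 ± 0.12) and Ephb4 in DTR (-0.60 ± 0.16, and not called at -0.47 without DTR input 4 or at -0.44 without DTR IP 3). Ephb1 and Ephb2 had LFCs between -0.17 and 0.07 and were not called.

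Of the semaphorins, all 7 class 3 genes, whose products are secreted, had negative LFCs in both treatments under each of the 3 scalings tried, with 5 called lower in control (Sema3b, Sema3c, Sema3e, Sema3f and Sema3g) and 2 in DTR (Sema3b and Sema3c). Both class 5 genes, Sema5a and Sema5b, were called lower in control (-0.93 ± 0.15 and -0.80 ± 0.13) and in DTR (-0.78 ± 0.15 and -0.69 ± 0.13). Of the membrane-bound class 4 and 6 genes, Sema4c and Sema6b were called higher in both treatments, and Sema4g, Sema6c and Sema6d in DTR. That left 5 of 6 class 4 and 3 of 4 class 6 genes not called in control, where Sema4a (-0.38 ± 0.27) and Sema6a (-0.28 ± 0.10) had negative LFCs and Sema4d was near 0.

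Sema3b was at 134.6, 120.6, 119 and 115.6 CPM in control input and at 42.3, 45.5, 37.7 and 55.9 in control IP. It was at 73.2, 67.7, 72.1 and 70.4 CPM in DTR input and at 35.2, 32.9, 23.3 and 29.4 in DTR IP. The lowest input library was above the highest IP library in each treatment, and the LFCs were -1.43 ± 0.13 (adjusted p = 9.5e-08, limma) and -1.26 ± 0.13 (5.7e-07). Sema3c had LFCs of -1.49 ± 0.17 and -1.22 ± 0.17, and Sema3f of -0.67 ± 0.14 in control (-0.58 and not called without control input 3).

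Sema3g was low throughout. It was at 3.96, 3.66, 4.74 and 2.85 CPM in control input and at 1.11, 0.960, 0.999 and 0.817 in control IP. In DTR cochleae it was at 3.10, 2.78, 3.45 and 5.09 CPM in input and at 2.06, 2.71, 2.35 and 1.64 in IP. The control groups were apart, with an LFC of -1.44 ± 0.21 (adjusted p = 2.1e-05, limma), whereas in DTR the libraries overlapped on the normalised scale (-0.58 ± 0.21, adjusted p = 0.033) and the gene was not called. Since LFCs were taken with 0.5 added to the CPM, those of genes this low are understated.

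Sema3e, which signals through Plxnd1, followed the replicate number. It was at 27.9, 22.4, 6.75 and 6.11 CPM in control input and at 5.95, 6.46, 2.26 and 1.504 in control IP. It was at 24.0, 18.2, 6.51 and 4.66 CPM in DTR input and at 6.01, 6.05, 1.69 and 0.789 in DTR IP. Replicates 1 and 2 were above replicates 3 and 4 in each group, as were the summed neuron markers, whose part in these values was not tested. The gene was called lower in control IP (LFC -1.68 ± 0.61, adjusted p = 0.035, limma), but the deposited CPM of control replicates overlapped (6.11 in input, 6.46 in IP), and the call was lost without control input 1 or 2 or control IP 3 or 4, with adjusted p of 0.087 to 0.12. Within pools, the IP library was the lower in every pair of both treatments. With the pool as a replicate block the control LFC was -1.68 ± 0.16 (adjusted p = 9.4e-07, limma) and the gene was called. In DTR the LFC with the block was -1.83 ± 0.16 (4.8e-07), and the overlap of the groups kept it from a call.

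Sema7a, a lipid-anchored semaphorin that binds Plxnc1, was at 5.96, 3.21, 2.22 and 1.14 CPM in control input and at 10.1, 8.76, 4.12 and 2.45 in control IP. It was at 2.10, 1.83, 1.02 and 1.58 CPM in DTR input and at 7.74, 5.84, 5.53 and 3.78 in DTR IP. The control groups overlapped, with both groups lower in replicates 3 and 4, whereas every DTR IP library was above every DTR input library. The gene was called in DTR (LFC 1.60 ± 0.35, adjusted p = 0.0015, limma) and not in control (0.99 ± 0.35, 0.033), where the IP library was the higher in all 4 pairs and the overlap of the groups kept it from a call with the block as well (adjusted p = 0.00028). Sema4c had LFCs of 0.98 ± 0.19 in control and 0.96 ± 0.19 in DTR, and Sema6b of 0.93 ± 0.12 and 0.82 ± 0.12. Sema6d, Sema4g and Sema6c, called in DTR, had LFCs there of 0.84 ± 0.19, 0.64 ± 0.18 and 0.62 ± 0.12, and the last pair fell under the fold asked for without DTR IP 3 or with median centring (Sema4g, 0.54 and 0.57) and without DTR input 3 or DTR IP 4 (Sema6c, 0.55 in each).

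All 3 B plexins were called lower in control IP and 2 of them in DTR IP. Plxnb3, a receptor for Sema5a, was at 36.8, 29.9, 28.9 and 23.0 CPM in control input and at 8.10, 8.91, 5.53 and 6.02 in control IP. It was at 17.7, 16.5, 14.7 and 13.8 CPM in DTR input and at 6.43, 4.17, 4.51 and 3.95 in DTR IP. The groups were far apart in both treatments, with means 4.15-fold and 3.29-fold lower in the IP and LFCs of -1.93 ± 0.17 (adjusted p = 5.2e-08, limma) and -1.66 ± 0.17 (4.4e-07). Plxnb2, which binds Sema4c, had LFCs of -1.18 ± 0.19 and -1.07 ± 0.19, so that this ligand was higher in the IP and its receptor higher in the input. Plxnb1 (-0.67 ± 0.15) and Plxna3 (-0.79 ± 0.17) were called lower in control. Plxnd1, the receptor of Sema3e, was the 1 plexin called higher, in DTR IP (0.82 ± 0.15, adjusted p = 0.00036), with 0.52 ± 0.15 in control.

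Neither neuropilin, none of the 3 Slits, neither tested netrin and none of the 5 Unc5 and Dcc genes was called between IP and input. Dcc was lower in the IP in all 4 control pairs, with 2.81, 3.04, 1.62 and 2.10 CPM in input and 1.26, 1.83, 0.470 and 1.41 in IP, and with the pool as a replicate block it was called (LFC -0.69 ± 0.17, adjusted p = 0.0041, limma, against 0.072 without the block). Dcc was also lower in the IP in every DTR pair. The LFC there with the block was -1.15 ± 0.17 (adjusted p = 7.9e-05, limma), and the overlap of the groups kept it from a call. Of the Robos, Robo1 was called lower in both treatments (-1.12 ± 0.19 and -0.90 ± 0.19) and Robo4, known from endothelium, in control (-0.95 ± 0.24, adjusted p = 0.0041). All 8 endothelial markers were also called lower in the IP in both treatments, and their part in the Robo4 value was not tested.

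The comparison of DTR with control asks which members differed in the cochlea after ablation of Lgr5+ cells, once in the IP and once in the input. Most members called were lower in DTR. In the IP 8 of 65 were called, 1 higher and 7 lower (12.3%), against 9.03% of all genes tested (4.65% higher, 4.38% lower). In the input 11 were called, 1 higher and 10 lower (16.9%), against 8.27% (4.76% higher, 3.51% lower). The median LFC was -0.14 over the tested members and -0.0043 over all genes in the IP, and -0.16 and -0.021 in the input. Without quantile normalisation 2 members were called higher and 4 lower in the IP, and the share of called genes that were higher went from 51.5% to 62.3% over all genes. Leaving out replicate 2 of DTR IP gave 13 members called, 0 higher and 13 lower, and with replicates 3 and 4 alone 4 were called in the IP and 1, Ephb1, in the input. For these settings with libraries left out the shares over all genes are not given, so the counts show nothing particular to the members.

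Altogether 13 members were called, 6 in IP and input (Ephb1, Ephb2, Ntn4, Plxnb3, Plxnc1 and Sema3b), 2 in the IP (Unc5b and Sema3g) and 5 in the input (Epha3, Ephb6, Sema3a, Sema4c and Efna3). The matching split over all genes is not given, so this split shows nothing particular to the members. IP and input libraries of a number came from the same pool and are not independent of each other. Ephb1 was the 1 member called by the stricter rule, lower in IP and in input. That rule called 1.34% of all genes lower and 1.12% higher in the IP (2.47% together), and 1.00% lower and 1.34% higher in the input (2.34% together). Summed Schwann cell and glial markers were 1413 to 2141 CPM in DTR input and 2681 to 4700 in control input, and 658 to 856 and 877 to 1346 in the IP groups. Of these 7 markers, 2 were called lower in DTR input and 0 in DTR IP, and 1 had a positive LFC in each. Summed macrophage markers were 126 to 206 CPM in DTR input and 93.7 to 101 in control input, and dividing cell markers 156 to 193 and 74.2 to 113. Summed endothelial markers were 401 to 496 CPM in DTR input and 311 to 372 in control input, and 172 to 195 and 103 to 132 in the IP groups. Of the 8 endothelial markers, 3 were called higher in DTR IP and 1 in DTR input. The part of these cell types in the values below was not tested.

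**Figure D3:**
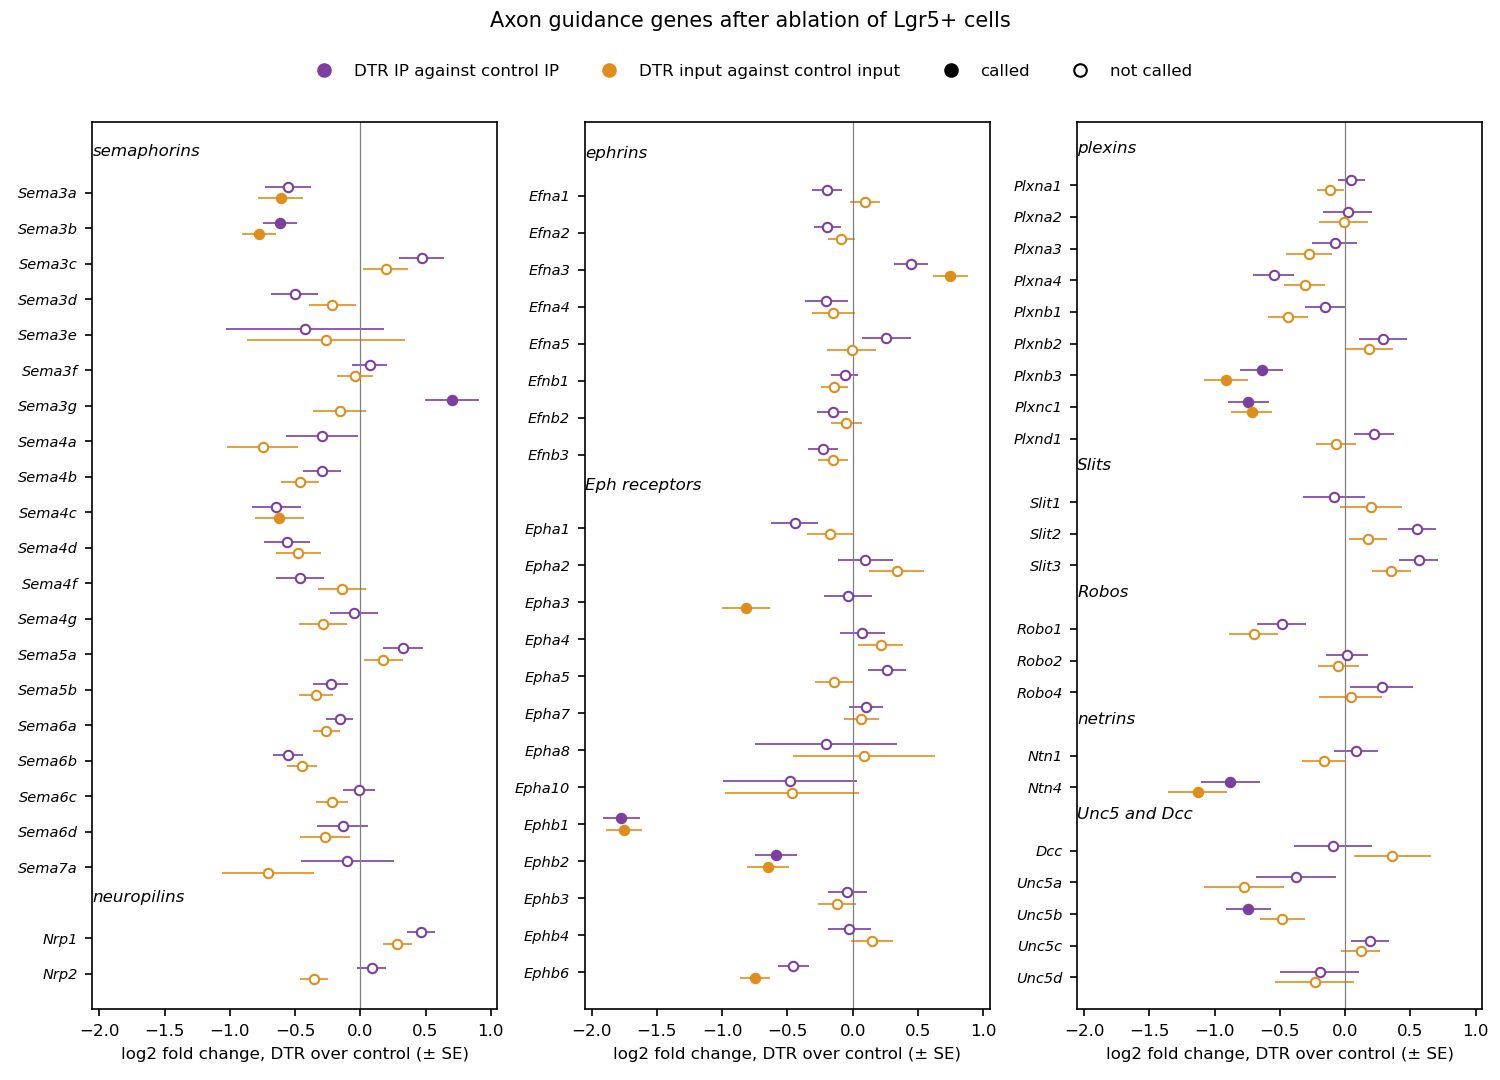
LFC of DTR over control, with its SE from limma, for the 65 tested members by family, in IP (purple) and input (orange). Filled points were called. Ephb1 stands alone at the left with LFCs of -1.77 and -1.75, and Sema3g in the IP and Efna3 in the input were called to the right.

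Ephb1, a receptor for ephrin-B ligands, was at 29.3, 31.1, 38.1 and 33.1 CPM in control input and at 32.4, 37.3, 35.4 and 34.5 in control IP. It was at 8.80, 9.74, 8.58 and 12.4 CPM in DTR input and at 11.4, 11.04, 8.98 and 8.65 in DTR IP. All 8 DTR libraries were below 13 CPM and all 8 control libraries above 29. The mean was 3.48-fold lower in DTR IP and 3.33-fold lower in DTR input, with LFCs of -1.77 ± 0.14 (adjusted p = 3.9e-08, limma) and -1.75 ± 0.14 (4.8e-08), and the call held in all 22 alternatives in each. The gene (chromosome 9, 101922128 to 102354693, minus strand, GRCm38) overlaps several short or non-coding annotated genes on either strand, whose reads the unstranded libraries cannot separate from its own. The same holds for Efna3, Ntn4, Sema3a and Sema4c, which overlap genes on the opposite strand, and for Epha3, Plxnc1 and Unc5b, which overlap genes on their own strand.

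Ephb2, a further receptor for ephrin-B ligands, was at 29.1 to 36.1 CPM in control input and at 18.6, 18.8, 20.8 and 27.5 in DTR input, and at 22.4 to 33.8 in control IP and 16.3 to 23.9 in DTR IP. In the deposited CPM, control IP 4 (22.4) lay below DTR IP 2 and 4 (23.1 and 23.9), and after quantile normalisation the groups did not overlap. The LFCs were -0.59 ± 0.16 in IP (adjusted p = 0.017, limma) and -0.65 ± 0.16 in input (0.010). The IP call was lost without control IP 1, 2 or 3 or without DTR IP 1 or 3 (LFCs of -0.58 to -0.46), and the input call without DTR input 1 (-0.58). Ephb6 was at 96.5 to 116 CPM in control input and 57.8 to 73.1 in DTR input (LFC -0.75 ± 0.12, adjusted p = 0.00016), with -0.45 ± 0.12 in the IP. Epha3 fell in the input (-0.82 ± 0.18, adjusted p = 0.0050), where its libraries are given above, and had an LFC of -0.03 ± 0.18 in the IP. The 3 ephrin-B genes, which encode the ligands of EphB receptors, had LFCs between -0.23 and -0.05 and were not called.

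Efna3 was the 1 member called higher in DTR input, where its lowest library (8.61 CPM) was above the highest control (6.73 CPM), with an LFC of 0.75 ± 0.13 (adjusted p = 0.00058, limma). In the IP its LFC was 0.45 ± 0.13 (adjusted p = 0.026) and was under the fold asked for. The other 4 ephrin-A genes had LFCs between -0.20 and 0.26 in either comparison.

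Ntn4, a netrin found in basement membranes, was at 72.4, 66.6, 74.2 and 95.6 CPM in control input and at 95.6, 126, 104 and 111 in control IP. It was at 24.0, 29.8, 31.5 and 63.3 CPM in DTR input and at 44.7, 68.8, 58.8 and 72.3 in DTR IP. DTR was below control in both sample types, and DTR input 4 lay close to the lowest control at 66.6 CPM. The LFCs were -0.88 ± 0.22 (adjusted p = 0.011, limma) in IP and -1.13 ± 0.22 (0.0018) in input, and the means were 1.78-fold and 2.08-fold lower. Unc5b, a receptor for netrins, was at 36.6 to 54.5 CPM in control IP and 23.9 to 31.8 in DTR IP, with no overlap (LFC -0.74 ± 0.17, adjusted p = 0.0061). In the input DTR replicate 4, at 41.7 CPM, lay within the control range of 35.7 to 45.8, and the gene was not called (-0.48 ± 0.17, 0.084).

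Plxnc1, the receptor of Sema7a, was at 18.8, 16.1, 16.3 and 15.7 CPM in control input and at 19.6, 20.6, 19.7 and 13.3 in control IP. It was at 10.7, 7.51, 11.6 and 11.97 CPM in DTR input and at 11.3, 10.8, 10.5 and 11.1 in DTR IP. No DTR library reached the lowest control library of its sample type, although control IP 4 stood apart from the other control IP libraries. The LFCs were -0.74 ± 0.15 (adjusted p = 0.0025, limma) and -0.72 ± 0.15 (0.0038). Plxnb3 and Sema3b, whose libraries are given above, had LFCs of -0.64 ± 0.17 (adjusted p = 0.012) and -0.61 ± 0.13 (0.0025) in IP, and of -0.91 ± 0.17 (0.00077) and -0.78 ± 0.13 (0.00033) in input. For Plxnb3 the deposited CPM of DTR IP 1 (6.43) lay within the control IP range of 5.53 to 8.91, and its IP call was lost without quantile normalisation (-0.54), without control IP 2 (-0.58) or without DTR IP 4 (-0.58). The IP call of Sema3b was lost without control IP 4 (-0.48) or DTR IP 3 (-0.50), and the input call of Plxnc1 without DTR input 2 (-0.57).

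Among the other semaphorins, Sema3a, a repellent of sensory axons, was at 65.5 to 89.8 CPM in control input and 39.2 to 57.5 in DTR input (LFC -0.61 ± 0.17, adjusted p = 0.026, limma), and had an LFC of -0.55 ± 0.17 in the IP. Sema4c was at 83.2 to 93.8 CPM in control input and 41.9 to 72.5 in DTR input (-0.62 ± 0.19, adjusted p = 0.033). In the IP Sema4c had an LFC of -0.64 ± 0.19 (adjusted p = 0.023), but its highest DTR library (154 CPM) was above the lowest control (145 CPM) and it was not called. The input calls of both were lost without control input 2 or 3 or DTR input 1 or 3, and that of Sema4c also without control input 4, with adjusted p between 0.056 and 0.13. Of the 6 class 4 semaphorins 0 were called in the IP (3 at an unadjusted p under 0.05) and 1 in the input by limma, and edgeR and DESeq2 each called 1, Sema4d, lower in DTR IP. The class had median LFCs of -0.38 and -0.47 (-0.0043 and -0.021 over all genes). All 6 LFCs were negative except that of Sema4g in the IP without normalisation (0.019). Sema3g was the 1 member called higher in DTR IP, where its libraries were at 1.64 to 2.71 CPM against 0.817 to 1.11 in control IP (LFC 0.70 ± 0.21, adjusted p = 0.026). The call was lost without control IP 2, DTR IP 2 or DTR IP 3 (adjusted p = 0.062, 0.076 and 0.056). In input it had an LFC of -0.16 ± 0.21.

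**Figure D4:**
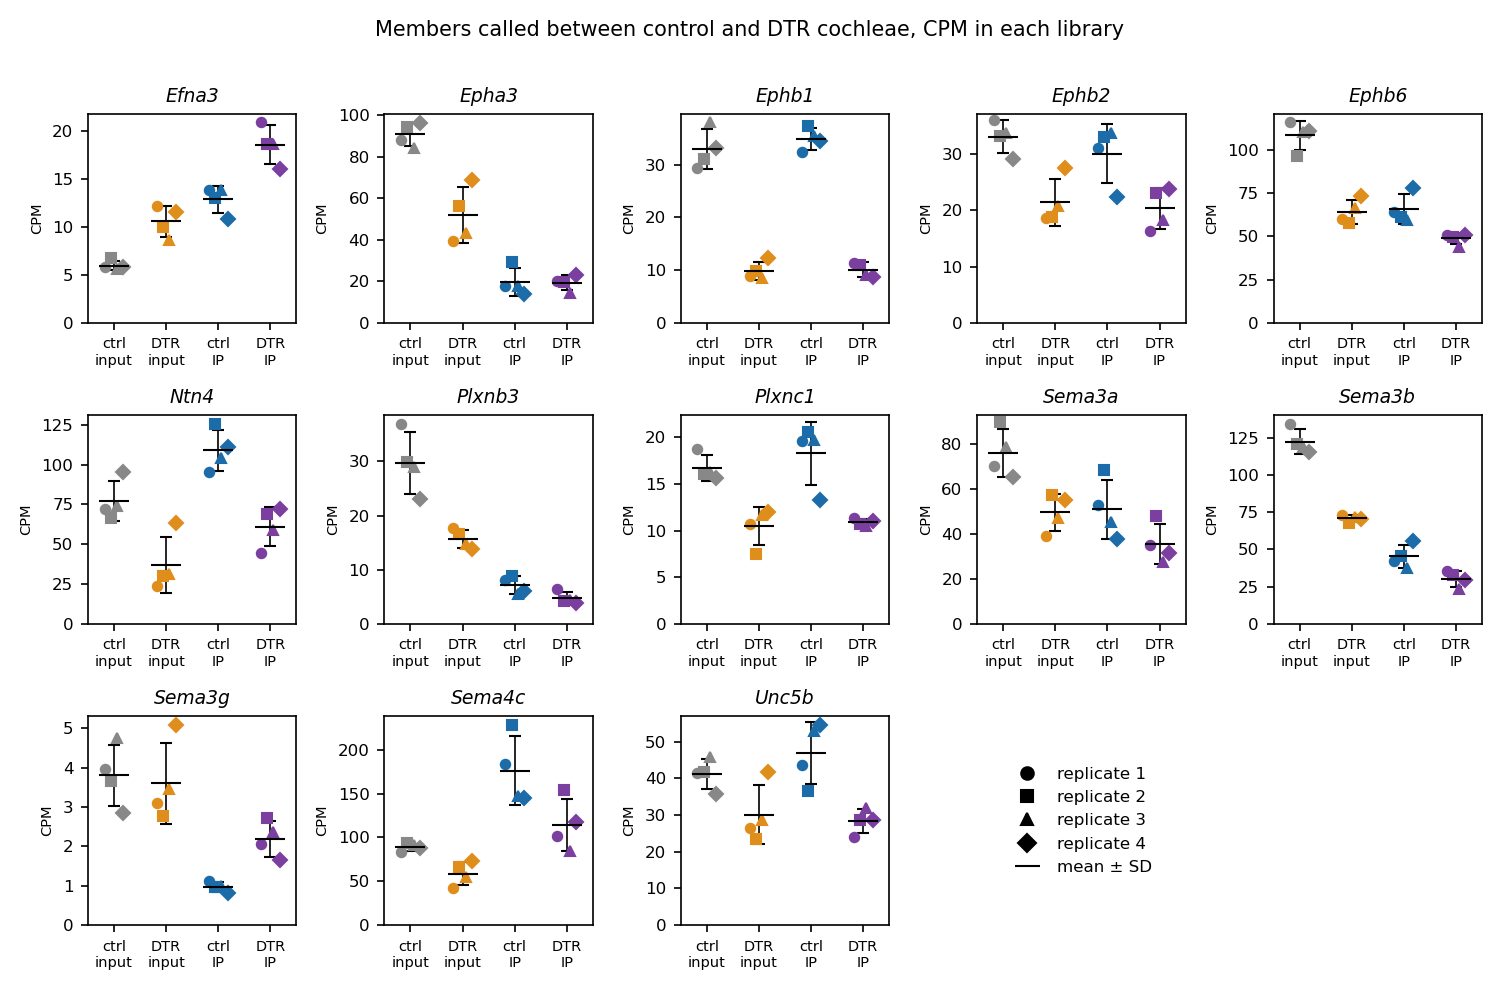
CPM of the 13 members called between control and DTR, in each library, on axes that start at 0. Symbols mark the replicate, horizontal bars the group mean and whiskers the SD of 4 libraries. Ephb1 shows separate control and DTR levels in input and IP. Replicate 4 of DTR input lies above the other 3 for Ntn4, Unc5b, Epha3, Sema3g, Ephb1, Ephb2, Ephb6, Sema4c and, narrowly, Plxnc1. It does not for Efna3, Plxnb3, Sema3a and Sema3b.

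Some members that were not called had an adjusted p under 0.05 with a smaller fold or with overlapping libraries. As examples, Slit2 and Slit3 had LFCs of 0.55 ± 0.15 and 0.56 ± 0.15 in DTR IP (adjusted p = 0.014 and 0.013, limma), Nrp1 of 0.46 ± 0.11 (0.0058), and Sema6b of -0.55 ± 0.12 (0.0026). With the called members counted too, 5 members were higher and 13 lower in DTR IP at an adjusted p under 0.05. In DTR input 1 was higher and 14 were lower, and the matching shares over all genes are not given. The 27 members that limma called in no comparison, apart from the call of Dcc with the replicate block, were Dcc, Efna5, Efnb1, Efnb3, Epha1, Epha5, Epha8, Epha10, Nrp1, Nrp2, Ntn1, Plxna1, Plxna2, Plxna4, Robo2, Sema3d, Sema4a, Sema4b, Sema4d, Sema4f, Sema6a, Slit1, Slit2, Slit3, Unc5a, Unc5c and Unc5d. For these a missed threshold does not show an equal level, and Epha8 and Epha10 had SEs of over 0.5 in each comparison.

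The difference between the change after damage in IP and in input was tested as an interaction. limma called 0 of 65 members at an adjusted p under 0.05, against 0.0118% of all genes, and edgeR and DESeq2 on the recovered reads called 0 as well. At an unadjusted p under 0.05 there were 3, Epha3 (difference in LFC 0.78 ± 0.26, adjusted p = 0.63), Sema3g (0.86 ± 0.29, 0.64) and Nrp2 (0.44 ± 0.15, 0.66). Calls in IP alone or in input alone are therefore not shown to differ between the sample types.

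Other genes of the pathway were taken from lists of 16 further cues and receptors and 43 signalling effectors. Of the 16 cues and receptors, all tested, 5 were called between IP and input in control (2 higher, 3 lower) and 5 in DTR (2 higher, 3 lower), and 3 and 4 were called lower in DTR in IP and input, with none called higher. Of the 42 effectors tested, 9 (2 higher, 7 lower) and 8 (2 higher, 6 lower) were called between IP and input, and 2 in each comparison of DTR with control. The shares called, in the order control IP against input, DTR IP against input, DTR against control in IP and in input, were 31.3%, 31.3%, 18.8% and 25% of the cues and receptors and 21.4%, 19.1%, 4.76% and 4.76% of the effectors, against 24.1%, 21.8%, 9.03% and 8.27% of all genes. Nrcam, an adhesion molecule that takes part in semaphorin signalling, was lower in DTR IP (76.2 ± 8.68 CPM in control and 25.6 ± 5.37 in DTR, LFC -1.61 ± 0.15, adjusted p = 5.3e-07, limma) and DTR input (157 ± 31.1 and 63.0 ± 6.88, -1.28 ± 0.15). Draxin, a secreted cue that binds DCC, was lower in DTR input (5.80 ± 1.29 and 2.38 ± 0.746 CPM, -1.21 ± 0.25, adjusted p = 0.0024). Neo1, a receptor related to DCC, and the adhesion molecule Cntn1 were lower in the IP in control (-1.26 ± 0.11 and -2.40 ± 0.13) and in DTR (-1.02 ± 0.11 and -2.27 ± 0.13), as were the effectors Farp2 (-1.08 ± 0.17 and -1.02 ± 0.17) and Arhgef11 (-1.43 ± 0.17 and -1.15 ± 0.17).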

How the data were processed

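The authors deposited CPM for each gene and library, and each column summed to 1000000. Their methods name alignment to GRCm38 with HISAT2 and counting with HTSeq, whereas the submitters' processing notes name TopHat. The annotation release and the strand setting are not given in the sources used here. The SMART-Seq v4 kit does not mark strand, so reads of overlapping genes, which many members have, cannot be told apart. Every CPM was a whole multiple of what 1 read is worth, within 0.01 reads or, for large counts, a tolerance widened in proportion to the count. This gave back whole reads for the count tools. Of 50316 genes listed, 2587 had no value in any library. Depths, with at least 28089836 reads a library, and the floor of 3 reads cover counting error only.

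The CPM were quantile normalised over the 16 libraries and log2 transformed after adding 0.5. No correction for gene length was made, whereas the study corrected its IP libraries for a length effect before clustering. Genes with at least 0.5 CPM in all 4 libraries of 1 group were kept (16994), and limma (version 3.58.1, R 4.3.3) was fitted to all 16 libraries (trend in the variance allowed) with p-values adjusted by Benjamini-Hochberg across every gene tested. The stricter rule asked for an LFC of 1 or more in size, the same adjusted p, and the lowest library of the higher group over 1.5 times the highest of the lower group, with a floor at the 10th percentile (1.08 CPM). Alternatives were other scalings, pseudocounts and filters, the compared groups alone, calls without 1 criterion, edgeR (version 4.0.16) and DESeq2 (version 1.42.0) on recovered reads, each library left out, and a replicate block. The procedure was tested on simulated data.

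Groups and replicate numbers came from the sample titles and characteristics. Input and IP of a number came from 1 homogenate, per the study's methods. For control against DTR the labels give only the number. The deviations of same-numbered libraries from their group means correlated in every pair (r of 0.29 to 0.56 over the 4 comparisons), so that the numbers were taken to pair the samples. The means for different numbers (-0.12 to -0.13) add nothing to this. They follow from those for the same number, because deviations from a group mean cancel out within the group. The reported tests used group means only and neither pairing, and both pairings were used in the alternative with a replicate block. P-values measure the spread between pools.

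The members and the lists were chosen with earlier results of these data known. Named with values were all members called in any comparison, the most abundant member of each family per kb and the members under the filter by name. All 16 libraries are given for the 3 called members with the largest LFC in each direction of each comparison, and of other pathway genes those called by the stricter rule are named. Lgr5 and Slc1a3 served as checks. Gene positions and exon lengths came from GENCODE M21 (GRCm38) and promoters from RefSeq. Protein sequences were not used here.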

Additional observations from a re-analysis of the deposited data

Results flagged for a closer look

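In 152 groups of 4 libraries (38 called members in 4 groups) the highest or lowest library was compared with the range of its group. It stood apart by Dixon's criterion in 10, where chance gives about 1 in 20 groups. DTR input 4 was the highest of its group for Ephb3 (158.3 CPM, others 118 to 125), Plxnd1 (124.3, others 75.0 to 76.9) and Robo4 (13.1, others 6.77 to 7.51). DTR IP 4 was the highest for Robo4 (5.85, others 4.27 to 4.49) and the lowest for Plxnd1 (131.1, others 155.1 to 158.2) and Plxna3 (13.6, others 17.0 to 17.6). DTR IP 3 was the lowest for Ephb4 (81.5, others 123.1 to 130.6) and Plxnb2 (84.4, others 144.5 to 152 CPM). DTR IP 1 was the highest for Efnb2 (85.4, others 70.6 to 72.5), and control IP 4 the lowest for Plxnc1 (13.3, others 19.6 to 20.6).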

How the results depend on the processing

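No LFC of a called member changed sign under any alternative, and the number called stayed within 1.5 times its value with exceptions in the comparisons of DTR with control. These were DTR IP against control IP without DTR IP 2 (13 members) and without the fold criterion (15), and DTR IP against control IP and DTR input against control input with replicates 3 and 4 alone (4 and 1, an alternative chosen after seeing the data, against 7 and 14 with replicates 1 and 2 alone). With each library left out, 25 to 29 members were called between IP and input in control, 21 to 30 in DTR, 7 to 13 between DTR and control in IP and 9 to 16 in input (16 without DTR input 4), with 0 for the interaction. With the replicate block 27, 23, 8, 11 and 0 were called, which added Dcc in control IP against input and changed no other call, and over all genes the interaction called 40 with the block, 49 with DESeq2 and 0 with edgeR against 2 in the analysis reported. Of 680 values of called members under the alternatives that kept all libraries, 6 had an adjusted p above 0.05 (Sema3e, Plxnb3, Sema3g, Ephb2, Sema4c and Sema3a, once each), and 18 of 544 with a library left out and 27 of 136 with replicates 1 and 2 or 3 and 4 alone. The calls held in all 22 alternatives for 18 of 26 and 16 of 23 members between IP and input, and for 2 of 8 (Ephb1 and Unc5b) and 1 of 11 (Ephb1) between DTR and control. With 4 pools a group, fold changes under 1.5 could not be called whatever their p, and genes under 1 CPM rested on few reads.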
